A study of Solanum tuberosum with 100 samples.

Results

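Transcript levels of 3 genes annotated to the ubiquitin pathway were followed in bruised potato (Solanum tuberosum) tubers. They are a RING finger protein gene (PGSC0003DMG400012137, chromosome 8, 56.26 Mb), the gene of ubiquitin carboxyl-terminal hydrolase isozyme L3 (PGSC0003DMG400026229, chromosome 8, 51.26 Mb; UCH-L3 gene below) and a phototropic-responsive NPH3 family gene (PGSC0003DMG400017655, chromosome 9, 43.86 Mb). Names and positions are those of the study on the PGSC-DM v4.03 genome. The 3 genes were selected on the difference between high- and low-bruising samples: they are among the 57 genes that the study listed as differentially expressed, out of 25163 genes in the count table. That difference is therefore described here, and its p-values are given only to show how the genes were chosen.

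Each of the 100 samples was a different tetraploid genotype, the progeny of Crop52 in one of 11 crosses, and all of them were bruised. Tissue was sampled 2 h after impact and pooled from the 3 tubers of a biological replicate. The groups were 33 high-bruising samples (mean score of the sequenced tubers of 2 or more), 26 intermediate samples and 41 low-bruising samples (mean score of 1 or less). The other parent was V390 in cross 2121, 'Admiral' in 2155, 'Dolce Vita' in 2158, 'Driver' in 2159, Crop18 in 2165, 'Moonlight' in 2168, 'Red Rascal' in 2170, 'Summit Russet' in 2172, Crop9 in 2175, Crop37 in 2177 and Crop58 in 2183. A second biological replicate was scored for bruising in 99 of the genotypes but not sequenced. No unbruised tubers were among the samples, so a response to the impact cannot be told apart from a standing difference between genotypes.

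Ubiquitin is attached to proteins by a chain of E1, E2 and E3 enzymes, and many proteins marked in this way are degraded by the proteasome. RING finger proteins are a large class of E3 ligases, which choose the protein to be marked, although not every RING finger protein has been shown to act as one. Ubiquitin carboxyl-terminal hydrolases work in the other direction and release ubiquitin from small adducts, which keeps a pool of free ubiquitin. NPH3 is known from Arabidopsis, where it binds the blue light receptor phototropin and carries a BTB domain through which it acts as the substrate adaptor of a cullin-3 E3 ligase; many members of its family have no known substrate.

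Total counts ran from 6832655 to 30655033 in high-bruising, from 7774698 to 41650152 in intermediate and from 8065444 to 37849041 in low-bruising samples. Of 5 patatin genes, which encode the main storage protein of the tuber, 4 were above the 97th percentile of mean expression. The fifth was at percentile 49.2, with a median of 3.39 CPM and a count of 0 in 1 sample. The summed patatin level ran from 952 to 9227 CPM (counts scaled to a common library size) in high-bruising samples, from 559 to 15380 CPM in intermediate samples and from 1201 to 12713 CPM in low-bruising samples, and its part in the values below was not tested. Pearson's r of member log2 CPM with log2 total count was 0.00 for the RING finger gene, 0.07 for the UCH-L3 gene and -0.10 for the NPH3 gene over 100 samples. In bulk tissue, a smaller number of expressing cells and less RNA per cell cannot be told apart.

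The 3 genes were all of low to moderate abundance and were counted in every library. The RING finger gene averaged 3.19 CPM over all samples, above 44.1% of the genes in the table, and its counts ran from 8 to 209 reads. The UCH-L3 gene averaged 3.41 CPM with counts from 7 to 291 reads, and the NPH3 gene 11.8 CPM with counts from 12 to 702 reads. Only 1 library had under 10 reads of the RING finger gene and 1 of the UCH-L3 gene, whereas no library had so few of the NPH3 gene. CPM values are not scaled by transcript length, so they serve to compare samples for a gene. A percentile among genes ranks reads and not numbers of transcripts.

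The RING finger gene, a putative E3 ligase gene, varied widely within each group. Its CPM ran from 0.485 through a median of 3.63 to 10.3 in high-bruising samples, from 1.15 through 2.46 to 5.96 in intermediate samples and from 0.693 through 1.76 to 8.00 in low-bruising samples. The groups overlapped almost wholly: the lowest value of all belonged to a high-bruising sample, progeny 6 of cross 2177, and 5 high-bruising samples were above every low-bruising one. Of the 33 high-bruising samples, 24 were above the low-bruising median, and 7 of the 41 low-bruising samples were above the high-bruising median. Means were 4.45 ± 2.90 CPM in high-bruising samples (SD, n = 33), 3.05 ± 1.59 CPM in intermediate samples (SD, n = 26) and 2.28 ± 1.50 CPM in low-bruising samples (SD, n = 41).

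The UCH-L3 gene, the deubiquitinating member, varied less. It ran from 1.60 through a median of 3.93 to 8.46 CPM in high-bruising samples, from 0.891 through 3.32 to 8.33 CPM in intermediate samples and from 0.821 through 2.62 to 5.50 CPM in low-bruising samples. Only 2 high-bruising samples were above every low-bruising sample, and 6 low-bruising samples were below every high-bruising one. Means were 3.96 ± 1.45 CPM in high-bruising samples (SD, n = 33), 3.70 ± 1.89 CPM in intermediate samples (SD, n = 26) and 2.78 ± 1.14 CPM in low-bruising samples (SD, n = 41).

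The NPH3 gene encodes the putative E3 adaptor. It ran from 3.87 through a median of 14.6 to 29.2 CPM in high-bruising samples, from 1.36 through 9.54 to 24.6 CPM in intermediate samples and from 1.29 through 8.77 to 23.3 CPM in low-bruising samples. Of the high-bruising samples, 28 of 33 were above the low-bruising median and 5 were above every low-bruising sample. Means were 15.6 ± 6.91 CPM in high-bruising samples (SD, n = 33), 10.3 ± 5.79 CPM in intermediate samples (SD, n = 26) and 9.79 ± 5.05 CPM in low-bruising samples (SD, n = 41).

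**Figure D1:**
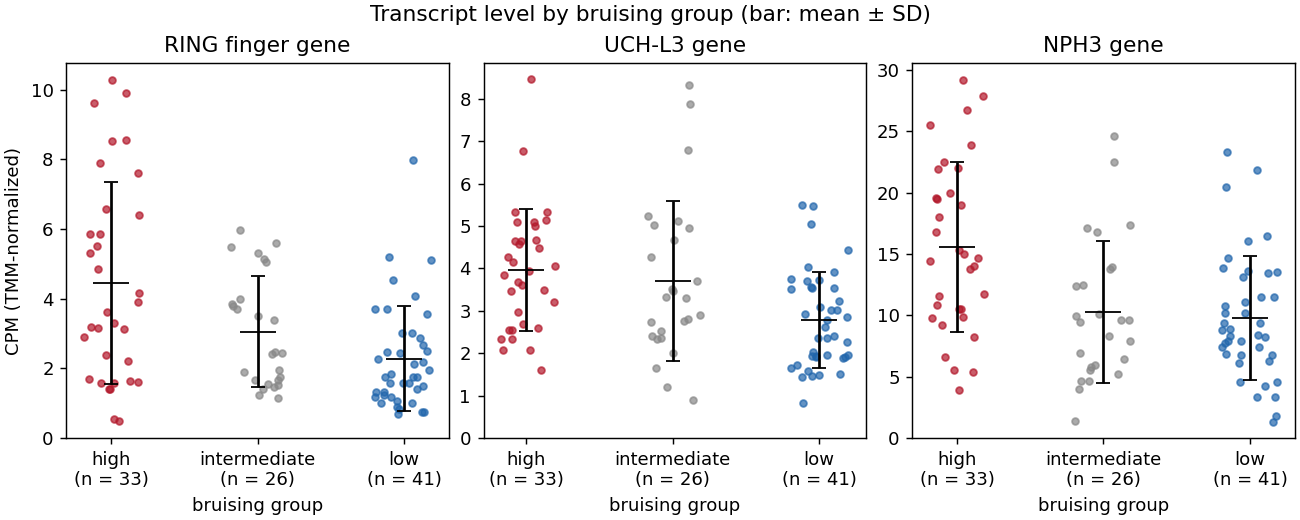
TMM-normalized CPM (y axis, linear, from 0) of each of the 3 genes in high-bruising, intermediate and low-bruising samples (x axis); each point is 1 genotype and the bars are the mean ± SD. The groups overlap for every gene; the intermediate mean of the UCH-L3 gene (3.70 CPM) is near the high-bruising mean (3.96 CPM), and that of the NPH3 gene (10.3 CPM) is near the low-bruising mean (9.79 CPM).

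The log2 fold change of high over low, by which the genes had been chosen, was 0.96 (SE 0.22) for the RING finger gene, 0.51 (SE 0.13) for the UCH-L3 gene and 0.67 (SE 0.17) for the NPH3 gene in edgeR with 74 samples. Run on the same samples, DESeq2, the tool of the study, gave adjusted p-values of 0.0182 for the RING finger gene, 0.0482 for the UCH-L3 gene and 0.0477 for the NPH3 gene. By that rule 0.279% of the 20772 genes with an adjusted p were called; the last gene inside the threshold of 0.05 had 0.0498 and the first outside it 0.0502. The UCH-L3 and NPH3 genes thus lay close to the threshold. The number of genes called in this contrast depended on the model. In edgeR 46 of 25163 genes passed without a cross term and 0 with it, and limma-voom called 0.

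The intermediate samples had no part in the choice. By point estimate they lay nearer the high group for the UCH-L3 gene and nearer the low group for the NPH3 gene. The intermediate group over the low group gave a log2 fold change of 0.42 (SE 0.22) for the RING finger gene, 0.41 (SE 0.15) for the UCH-L3 gene and 0.07 (SE 0.19) for the NPH3 gene. The high group over the intermediate group gave 0.54 (SE 0.24), 0.09 (SE 0.16) and 0.60 (SE 0.20) for the same genes in the same order. Each of these contrasts shares a group with the one that chose the genes, so no test is given. A departure from midway is therefore not shown for any of the genes.

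High- and low-bruising samples were spread unevenly over the crosses: 2121 had 6 high- and 1 low-bruising sample and 2165 had 7 and 2, whereas 2170 had 0 and 7 and 2183 had 0 and 4. With cross as a term, the high-over-low log2 fold change was 0.52 (SE 0.23) for the RING finger gene, 0.22 (SE 0.13; 95% interval -0.04 to 0.47) for the UCH-L3 gene and 0.40 (SE 0.16) for the NPH3 gene. Every one of the 3 values was more than 1.5 times smaller than without the term.

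Of the 9 crosses with both groups, the high-bruising mean of log2 CPM was above the low-bruising mean in 8 for the NPH3 gene, in 6 for the RING finger gene and in 5 for the UCH-L3 gene. By means of CPM the counts were 9, 5 and 5 in that order. On the log2 scale all 3 genes were higher in high-bruising samples in 3 of the 9 crosses. Within-cross differences of mean log2 CPM ran from -0.05 to 1.31 for the NPH3 gene, from -1.12 to 1.78 for the RING finger gene and from -0.28 to 0.68 for the UCH-L3 gene.

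Crosses 2175 and 2168 stood at opposite ends for the RING finger gene. In cross 2175, with Crop9, it averaged 6.63 CPM in 3 high-bruising samples and 2.04 CPM in 3 low-bruising samples. In cross 2168, with 'Moonlight', the 4 high-bruising samples ran from 1.40 to 4.16 CPM and the 2 low-bruising samples from 5.19 to 8.00 CPM, so the groups were separate in the reverse direction. For the UCH-L3 gene the high-bruising samples were all above the low-bruising ones in 4 crosses and all below in 1, and for the NPH3 gene they were all above in 2 crosses and all below in 0. Cross 2121, all above for both genes, had 1 low-bruising sample. Cross 2172, all below for the UCH-L3 gene and all above for the NPH3 gene, had 2 samples in each group. The share of all genes separated in this way was not computed, so these counts are descriptions only.

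**Figure D2:**
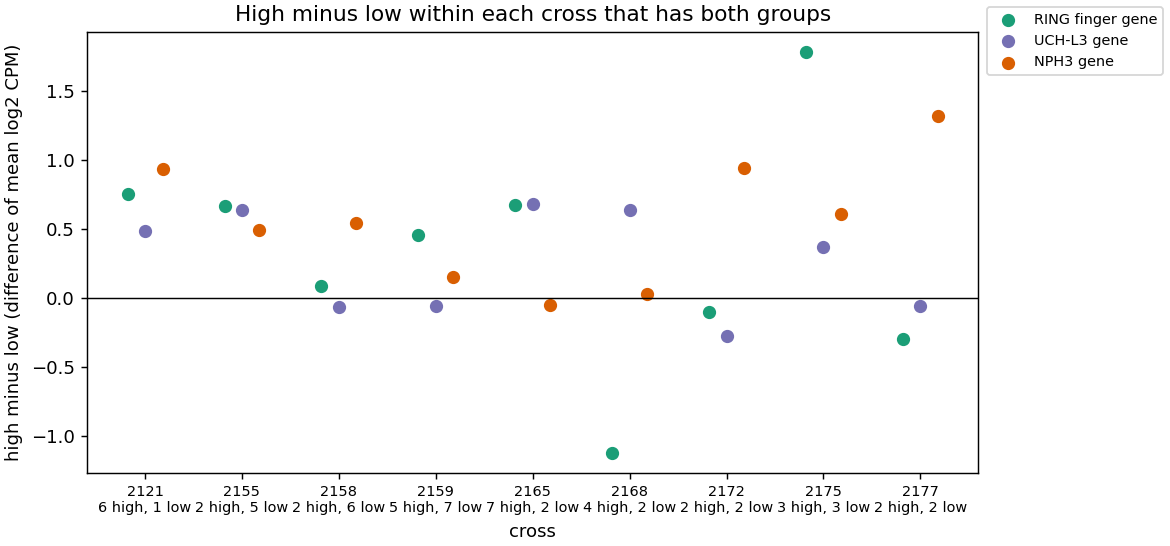
Difference of mean log2 CPM, high-bruising minus low-bruising (y axis), for each of the 9 crosses with both groups (x axis, with the number of samples); colours are the 3 genes. NPH3 values lie at or above about 0 in every cross (lowest -0.05), and RING finger values run from -1.12 in cross 2168 to 1.78 in cross 2175.

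Whether these differences varied among crosses was tested with the cross-by-group interaction over 63 samples. It passed the threshold for 0 of the 3 genes: the adjusted p of edgeR's quasi-likelihood test was 0.914 for the RING finger gene, 0.928 for the UCH-L3 gene and 0.987 for the NPH3 gene. Unadjusted p-values of the same edgeR test were 0.154, 0.274 and 0.714 in that order, so 0 of the 3 were under 0.05, and limma-voom also called 0 of the 3. Among all genes tested, 0.0159% (4 genes) were called, with 1325 genes at an unadjusted p under 0.05. With 1 to 7 samples for a group in a cross, the opposite signs in crosses 2175 and 2168 are not shown to differ. All 63 samples were among those whose high-low contrast, fitted without cross, chose the genes. The interaction test is therefore not independent of that choice.

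Levels differed between the crosses for all 3 genes. With bruising group in the model, the 10 cross coefficients gave adjusted p-values in edgeR of 0.000212 for the RING finger gene, 2.6e-06 for the UCH-L3 gene and 1.0e-08 for the NPH3 gene over 100 samples. Such a difference was common: 65.9% of all genes were called in that comparison, against 3 of 3 here. In the 26 intermediate samples alone, where 7.46% of all genes were called, the NPH3 gene passed (adjusted p = 0.0210 in edgeR) and the RING finger (0.316) and UCH-L3 (0.0758) genes did not. Crosses held 38.7% of the variance of log2 CPM for the RING finger gene, 47.4% for the UCH-L3 gene and 53.7% for the NPH3 gene, beside a median of 24.8% over all genes. After each bruising group had been centred, the shares were 28.5%, 38.0% and 49.9% for the same genes, beside a median of 23.8%.

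For the RING finger gene the highest mean of log2 CPM was that of cross 2165 and the lowest that of cross 2177, a 3.43-fold difference. Its CPM ran from 1.40 through a median of 5.32 to 9.62 in cross 2165, from 1.60 through 5.15 to 8.54 in cross 2121 and from 1.40 through 4.16 to 8.00 in cross 2168. At the other end it ran from 0.485 through 1.56 to 1.95 in cross 2177, from 1.00 through 1.06 to 1.76 in cross 2183 and from 0.757 through 1.53 to 3.84 in cross 2155. The order from high to low was 2165, 2121, 2168, 2175, 2172, 2159, 2158, 2170, 2155, 2183 and 2177, and 0 of the 10 steps between neighbours exceeded the smaller of their 2 SDs.

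For the UCH-L3 gene the order was 2121, 2165, 2175, 2158, 2177, 2155, 2168, 2159, 2172, 2183 and 2170, with a difference of 1.38 on the log2 scale between the ends. It ran from 3.22 through a median of 5.10 to 8.33 CPM in cross 2121 and from 2.85 through 4.66 to 8.46 CPM in cross 2165. In cross 2170, where 7 of 8 samples were low-bruising, it ran from 1.44 through 1.77 to 2.91 CPM, below every sample of cross 2121. Again 0 of the 10 neighbouring steps exceeded the smaller SD.

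For the NPH3 gene the order was 2165, 2168, 2121, 2172, 2170, 2175, 2183, 2159, 2155, 2158 and 2177, with a 4.12-fold difference between the ends. All 7 samples of cross 2168 lay between 13.8 and 22.0 CPM, and all 13 samples of cross 2158 between 4.27 and 9.35 CPM, so those crosses did not overlap. Cross 2177 ran from 1.36 through a median of 4.74 to 15.3 CPM. The step from 2158 to 2177 was the only one of 10 above the smaller SD of its 2 crosses. Cross 2170 ranked 5 of 11 for the NPH3 gene with a mean of 13.6 ± 4.24 CPM (SD, n = 8) with 0 high-bruising samples, whereas it stood last for the UCH-L3 gene with 1.98 ± 0.601 CPM (SD, n = 8).

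**Figure D3:**
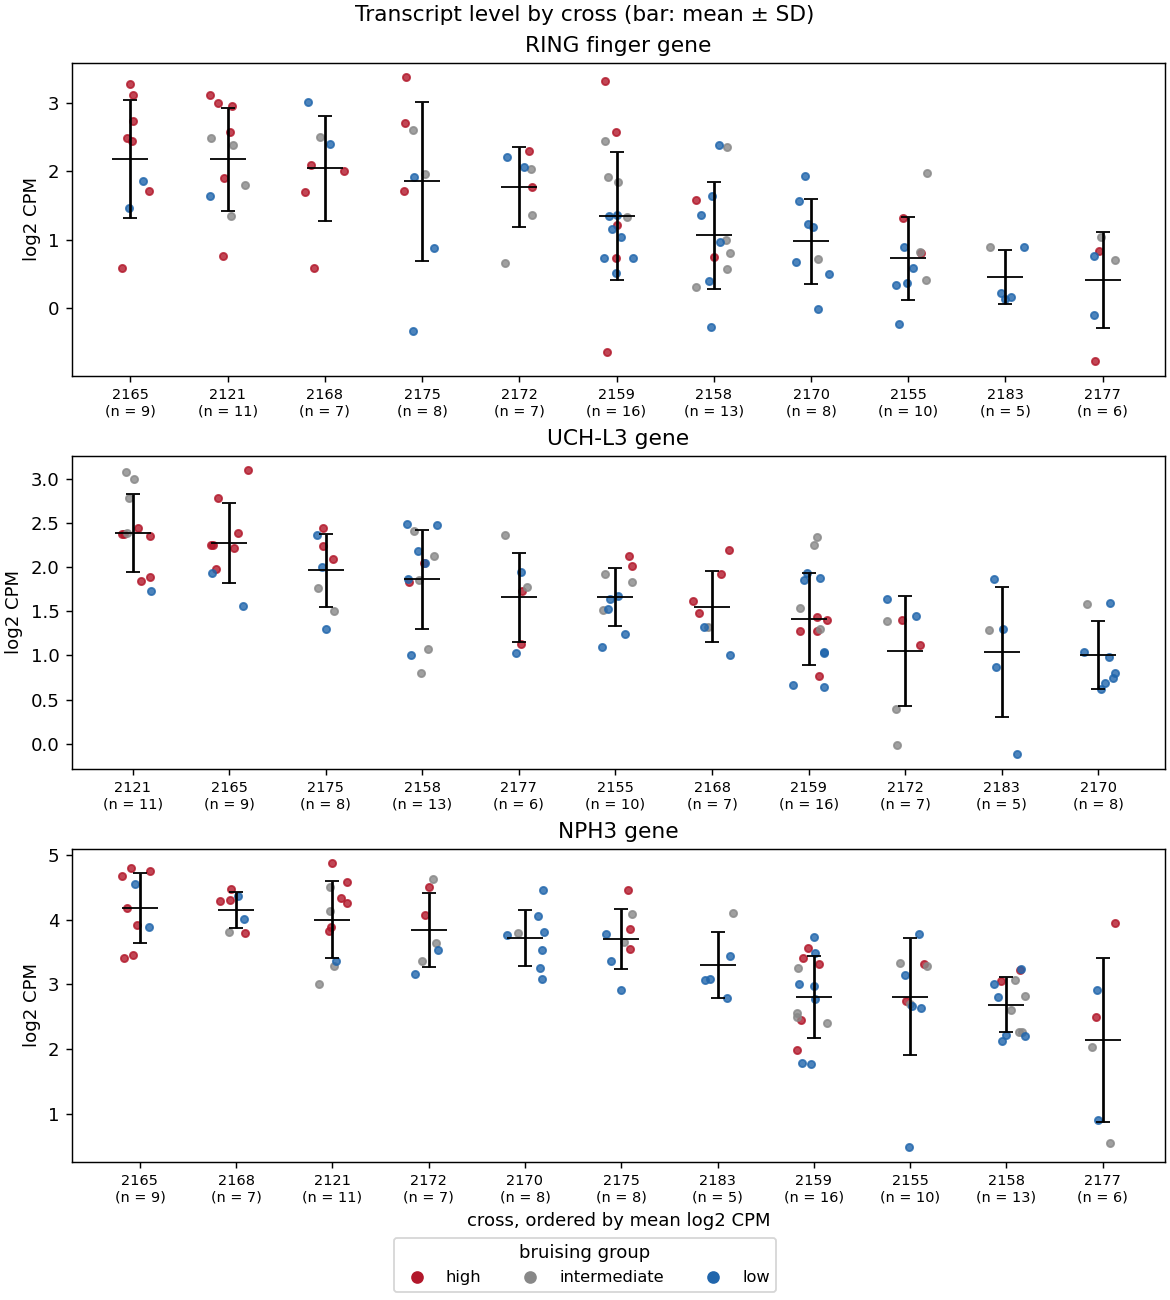
TMM-normalized log2 CPM (y axis) of each gene in the 11 crosses (x axis, ordered by the mean for that gene); points are genotypes coloured by bruising group and bars are the mean ± SD. Crosses 2165 and 2121 are among the 3 highest for every gene; cross 2177 is lowest for the RING finger and NPH3 genes and ranks 5 of 11 for the UCH-L3 gene.

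As a description over the 11 crosses, the mean log2 CPM of the RING finger gene followed that of the NPH3 gene with Pearson's r of 0.80 (Spearman's rho 0.83). The corresponding r was 0.52 for the RING finger and UCH-L3 genes and 0.16 for the UCH-L3 and NPH3 genes. Against the mean bruising score of the cross, r was 0.81 for the RING finger gene, 0.66 for the UCH-L3 gene and 0.50 for the NPH3 gene. All of the crosses share Crop52 as a parent, and the same samples gave the scores by which the genes were chosen.

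The replicate that was not sequenced gave a score that neither formed the groups nor chose the genes. Over 99 genotypes the scores of the 2 replicates had a Pearson's r of 0.44 (Spearman's rho 0.40). With the score of the sequenced tubers kept in the model, the slope of log2 expression per unit of the other score was 0.08 (SE 0.10; 95% interval -0.12 to 0.28) for the RING finger gene, 0.03 (SE 0.07; -0.12 to 0.17) for the UCH-L3 gene and 0.16 (SE 0.09; -0.01 to 0.33) for the NPH3 gene. With a cross left out the slope ran from 0.04 (without cross 2158) to 0.12 (without cross 2175) for the RING finger gene, from -0.02 (without cross 2165) to 0.05 (without cross 2172) for the UCH-L3 gene and from 0.10 (without cross 2159) to 0.22 (without cross 2170) for the NPH3 gene. The NPH3 interval was above 0 without cross 2170, without cross 2168 and without cross 2175, with unadjusted p-values in edgeR of 0.0183, 0.0402 and 0.0497 and adjusted p-values of 0.293, 0.488 and 0.498. With all crosses, adjusted p-values in edgeR were 0.844, 0.934 and 0.513 in that order, so 0 of 3 passed, and 0.0795% of all genes were called. Unadjusted p-values of the same edgeR test were 0.439, 0.691 and 0.069; DESeq2 and limma-voom also called 0 of the 3.

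Without the score of the sequenced tubers in the model, the slopes were 0.31 (SE 0.10) for the RING finger gene, 0.11 (SE 0.07) for the UCH-L3 gene and 0.28 (SE 0.08) for the NPH3 gene, with adjusted p-values in edgeR of 0.0499, 0.379 and 0.0322. In that model 3.62% of all genes were called. These slopes are not independent of the choice of genes, since the scores of the replicates were correlated. With cross added beside both scores, the slopes were -0.02 (SE 0.09), -0.07 (SE 0.06) and 0.07 (SE 0.07) in the same order, and 0 of 3 passed.

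**Figure D4:**
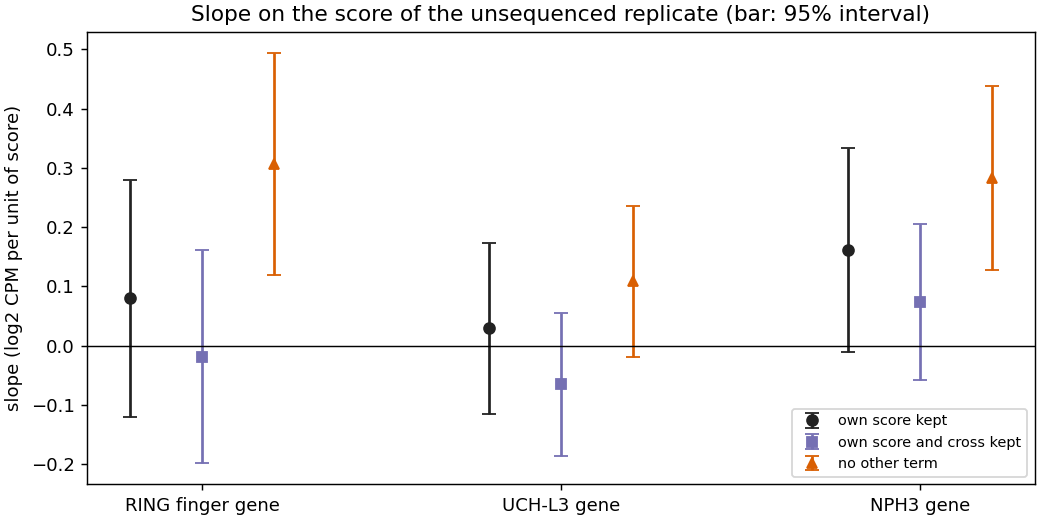
Slope of log2 expression per unit of the unsequenced replicate's score (y axis) for the 3 genes (x axis) in 3 models, with bars for the 95% interval. With the own score kept, the slopes of 0.08, 0.03 and 0.16 have intervals that include 0; with no other term, the slopes of 0.31 and 0.28 for the RING finger and NPH3 genes have intervals above 0.

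High-bruising samples could also be set apart by whether the other replicate of the genotype had bruised as well. This is given without a test. The sets shared some crosses but drew on the crosses unevenly. The split was not adjusted for cross, and the part of cross in these values was not tested. The RING finger gene averaged 4.98 ± 2.96 CPM where the other replicate scored 2 or more (SD, n = 18), 5.26 ± 2.74 CPM where it scored between 1 and 2 (SD, n = 8) and 2.14 ± 1.85 CPM where it scored 1 or less (SD, n = 7). The NPH3 gene averaged 17.0 ± 6.12, 16.7 ± 8.53 and 10.5 ± 5.06 CPM in these sets, and the UCH-L3 gene 4.26 ± 1.62, 3.70 ± 1.13 and 3.50 ± 1.27 CPM. The values of the sets overlapped for each gene: among the 7 genotypes whose other replicate scored 1 or less, the RING finger gene ran from 0.485 to 5.85 CPM and the NPH3 gene from 5.34 to 19.5 CPM. In low-bruising samples split in the same way (n = 10, 6 and 24), the RING finger gene averaged 2.95, 1.69 and 2.19 CPM. The NPH3 gene averaged 11.8, 7.59 and 9.33 CPM there, and the UCH-L3 gene 2.84, 2.52 and 2.84 CPM.

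The 26 intermediate samples were outside the choice of genes and took 2 values of the own score. Comparing the 15 samples at the upper value with the 11 at the lower, the RING finger gene averaged 3.26 ± 1.54 CPM against 2.77 ± 1.69 CPM (SD), and the difference of mean log2 CPM was 0.30 (two-sided permutation test, adjusted p = 0.467). The UCH-L3 gene averaged 3.52 ± 1.95 CPM at the upper value and 3.94 ± 1.86 CPM at the lower, a difference of -0.21 (permutation test, adjusted p = 0.480). The NPH3 gene averaged 11.3 ± 6.44 CPM at the upper value and 8.78 ± 4.65 CPM at the lower, a difference of 0.40 (permutation test, adjusted p = 0.467). None of the 3 differences passed the test. The NPH3 difference was 0.17 without progeny 5 of cross 2177, and 0.56 when centred on cross (permutation test within crosses, p = 0.0341, adjusted p = 0.102). The UCH-L3 difference was -0.36 without progeny 1 of cross 2172 and -0.09 without progeny 2 of cross 2121.

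Within the same 26 samples, log2 CPM had a Pearson's r with the other replicate's score of -0.28 for the RING finger gene (rho -0.20), -0.29 for the UCH-L3 gene (rho -0.20) and 0.02 for the NPH3 gene (rho 0.23). Permutation tests of r gave p-values of 0.158, 0.143 and 0.906 and adjusted p-values of 0.237, 0.237 and 0.906; those of rho gave 0.333, 0.325 and 0.264. Without the 2 samples whose scores were farthest from the median, r was -0.24, -0.043 and -0.039 in the same order. The value for the NPH3 gene depended on single samples in both directions. Without progeny 5 of cross 2177, its lowest intermediate value at 1.36 CPM, r was 0.33 (permutation test, p = 0.104). Without progeny 5 of cross 2172, its highest at 24.6 CPM, r was -0.12 (permutation test, p = 0.571).

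Because genes chosen for the same direction must move together between the groups, the 3 pairs were tested within the intermediate samples. Pearson's r was 0.29 for the RING finger and UCH-L3 genes (rho 0.18), 0.30 for the RING finger and NPH3 genes (rho 0.32) and -0.26 for the UCH-L3 and NPH3 genes (rho -0.25). Permutation tests of r gave p-values of 0.147, 0.135 and 0.201, each with an adjusted p of 0.201 over 3 pairs, and those of rho gave 0.363, 0.109 and 0.227. Without the 2 samples farthest from the median of the first gene, r was 0.39, 0.25 and -0.06. Centred on cross it was 0.30, 0.08 and -0.46 over 23 samples, with adjusted p-values of 0.449, 0.737 and 0.155 by permutation within crosses. The r of the UCH-L3 and NPH3 genes was -0.11 without progeny 5 of cross 2172 and -0.37 without progeny 5 of cross 2121. None of the 3 pairs passed the test, which does not show that their levels are unrelated.

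Over all 100 samples, the r of the RING finger gene was 0.30 with the UCH-L3 gene and 0.39 with the NPH3 gene, and that of the UCH-L3 and NPH3 genes was 0.05. After centring on cross and bruising group the values were 0.09, 0.00 and -0.19 in that order, with adjusted p-values of 0.523, 0.988 and 0.160 by permutation over all samples. That permutation did not allow for the means removed by centring.

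**Figure D5:**
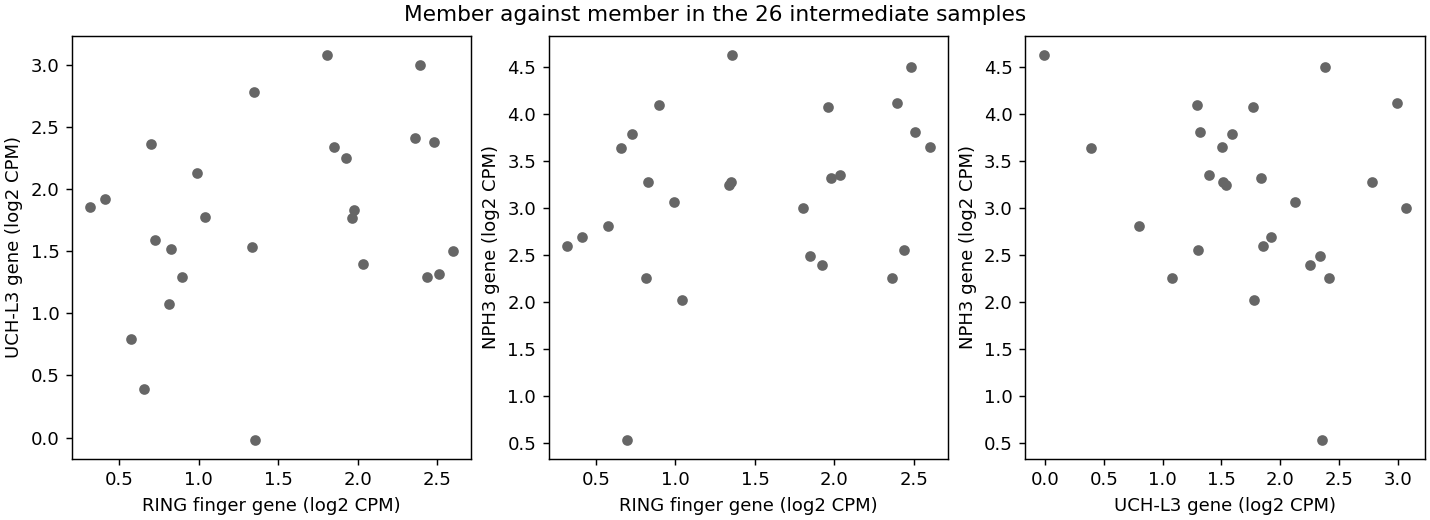
Log2 CPM of one gene against another in the 26 intermediate samples, 1 panel for each pair; each point is 1 genotype. The clouds are loose, with Pearson's r of 0.29, 0.30 and -0.26 from left to right.

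Other genes were ranked by how closely they followed each member over the 100 samples, among 17199 genes with a mean of at least 1 CPM. The highest Spearman's rho was 0.59 for the RING finger gene (PGSC0003DMG402003286), 0.47 for the UCH-L3 gene and 0.67 for the NPH3 gene (PGSC0003DMG400018356). The lowest rho was -0.55 for the RING finger gene (PGSC0003DMG400028048), -0.47 for the UCH-L3 gene and -0.69 for the NPH3 gene (PGSC0003DMG400024623). The files do not pair these identifiers with gene names. A rho above 0.5 was reached by 33 genes with the RING finger gene, by 0 with the UCH-L3 gene and by 149 with the NPH3 gene. A rho below -0.5 was reached by 13, 0 and 303 genes in that order. After centring on cross and group, 0, 0 and 1 genes were above 0.5. After centring on cross and group, the closest genes named above had rho of 0.43 with the RING finger gene and 0.33 with the NPH3 gene. All of these values come from the same libraries and are given as descriptions.

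Both members on chromosome 8 lie in a stretch that holds 3 other genes of the study's list: those of a nitrate transporter (PGSC0003DMG400004795, 52.57 Mb), an anthocyanin synthase (PGSC0003DMG400022746, 53.73 Mb) and a DNA binding protein (PGSC0003DMG400012215, 54.68 Mb). The rho of the RING finger gene was -0.37 with the nitrate transporter gene, -0.05 with the anthocyanin synthase gene and -0.33 with the DNA binding protein gene. The rho of the UCH-L3 gene with these genes was -0.24, 0.08 and -0.19. After centring on cross and group, they were -0.13, 0.01 and 0.14 for the RING finger gene and 0.04, 0.11 and 0.11 for the UCH-L3 gene. These neighbours came from the same high-low contrast, so these values are not independent of the choice of genes.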

How the data were processed

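RNA of bruised tubers was sequenced once for each of 100 genotypes, from poly(A) RNA in SENSE libraries. The authors aligned reads to the PGSC-DM v4.03 genome with STAR 2.6.1 and deposited whole-number counts of reads per gene without normalization, after removing genes with low counts. The table holds 25163 genes in 100 samples, every column was used, and no 2 columns were identical. Groups came from the labels, and bruising scores of both replicates from the study's score table. The members and gene lists were chosen with earlier results of these data known.

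Counts were fitted across all genes with edgeR 4.0.16 in R 4.3.3 (TMM normalization, quasi-likelihood F test, Benjamini-Hochberg adjustment, threshold 0.05). CPM use TMM-scaled library sizes and log2 CPM add a prior count of 2. DESeq2 1.42.0 and limma-voom (limma 3.58.1) were alternatives, beside those named under the dependence on processing. With 1 library a genotype, errors hold variation among genotypes together with that between tuber pools and libraries, which cannot be separated. Permutation tests used 100000 resamples in SciPy and NumPy and were adjusted over 3 genes or 3 pairs. Values centred on cross alone were redrawn within crosses, and those centred on cross and bruising group over all samples. Scripts were tested on simulated data. The named genes were the 3 members, the genes with the highest and lowest Spearman's rho to each, of which 4 identifiers are printed because they have no names here, and genes of the study's list between 50 and 57 Mb of chromosome 8. The reference table matched 0 identifiers, so other ubiquitin-pathway genes were not listed and no sequences are given. Total counts ran from 6832655 to 41650152, and the lowest count of a member in a library was 7 reads, which limits the precision of low values.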

Additional observations from a re-analysis of the deposited data

Results flagged for a closer look

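Of 24 sets tested (3 genes in the crosses with 4 to 10 samples), 1 held a sample far from the others. In cross 2155 the RING finger gene was at 3.84 CPM in progeny 13, an intermediate sample, while the next highest of the 10 samples was at 2.39 CPM. Chance flags about 1 in 20 such sets.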

How the results depend on the processing

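Most alternatives (288 values) left the result within set bounds. For tests the bound was the same direction and side of the threshold. Counts of genes had to stay within a set ratio, and other values within an SD with the same direction. With cross as a term, the high-over-low log2 change stayed within that SD, a loose bound, yet fell from 0.96 to 0.52 for the RING finger gene. It fell from 0.51 to 0.22 for the UCH-L3 gene and from 0.67 to 0.40 for the NPH3 gene. Each fall was larger than the SE without the term (0.22, 0.13 and 0.17 in that order). The cause was not tested for the values outside the bounds. Some of those settings also fitted fewer samples or genes. In the 26 intermediate samples alone the cross term gave an adjusted p of 0.316 for the RING finger gene and 0.0758 for the UCH-L3 gene (edgeR), with 1876 genes called (7.46%). The interaction called 35 genes with limma-voom and 2 to 5 with a cross left out. The slope on the other score was -0.019 for the RING finger gene and -0.065 for the UCH-L3 gene with cross as a term, and 0.31 for the RING finger gene and 0.28 for the NPH3 gene with the own score left out. It ran from -0.018 to 0.051 for the UCH-L3 gene with a cross left out, lowest without cross 2165. Genes called on that slope numbered 20, against 0 with filterByExpr, 0 with limma-voom, 11 with library size as a term, 1 with cross as a term, 10 with DESeq2, 912 with the own score left out and 7 to 19 with a cross left out. Within the intermediate samples, r of the NPH3 gene with the other score was -0.039 without the 2 extreme scores, -0.19 centred on cross and -0.12 to 0.33 with a sample left out. The same range was -0.40 to -0.23 for the RING finger gene and -0.42 to -0.14 for the UCH-L3 gene; without progeny 10 of cross 2158 both had an unadjusted permutation p under 0.05 (0.0459 and 0.0340). Over 100 samples the pairs had r of 0.30 and 0.39 with the RING finger gene and 0.050 for the UCH-L3 and NPH3 genes. No p is given for these uncentred values, because 74 of these samples chose the genes for a shared direction. With a cross left out, the high-over-low log2 change in edgeR ran from 0.86 to 1.16, 0.37 to 0.63 and 0.56 to 0.79 for the RING finger, UCH-L3 and NPH3 genes. Genes called on high over low numbered 46 in edgeR, against 3 with filterByExpr and 34 with library size as a term. They numbered 0 with limma-voom, 0 with cross as a term and 14 to 85 with a cross left out. The difference of log2 CPM means was 0.82, 0.52 and 0.72 for these genes and ran from 0.77 to 0.90, 0.48 to 0.56 and 0.65 to 0.77 with a sample left out.

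The labels give the number of the sequenced replicate and do not say whether it marks a batch. Deviations of samples with the same number had a mean correlation of 0.0013. A mean over genes cannot exclude an effect on some of them. With the replicate block, the high-over-low log2 change was 0.95 for the RING finger gene, 0.51 for the UCH-L3 gene and 0.67 for the NPH3 gene, and 16458 genes passed for cross, 4 for the interaction and 17 for the other score. For high over low, 28 genes passed with the block and 46 without it.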
